A study of Rattus norvegicus with 6 samples.

Results

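Immediate early genes and heat shock genes were followed across 6 microarrays of rat thoracic aorta. A list of 33 such genes was taken, 27 immediate early and 6 heat shock, and a gene counted as measured where a probe set of the array named it alone in the platform annotation. That held for 30 of the 33 (25 immediate early and 5 heat shock), out of 28879 probe sets in all, while Fosl2, Btg2 and Hsp90aa1 had no such probe set. Of the 30, only Jun had more than 1 probe set. The rats were 24 weeks old, of the inbred spontaneously hypertensive strain (SHR, 3 arrays) or of the related normotensive Wistar-Kyoto strain (WKY, 3 arrays), and had received no treatment before the vessel was taken, apart from a tail measurement of blood pressure. The labels name no transgene or induced allele and do not say whether rats were pooled. They also do not say that each array held a different rat, so a p-value here reflects no more than how these samples vary, and that variation may be technical. Levels are log2 values of a probe set, so a difference of 1 is a doubling of the measured signal. Levels of different genes are not compared, because each probe set has its own brightness. The array median serves only as a rough mark of a bright or a dim probe set.

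Immediate early genes are switched on by signals that reach the cell surface, without any new protein being made first. In vascular smooth muscle such signals include growth factors, stretch, vasoconstrictors and injury. MAP kinase signalling acts through the factors SRF and CREB at the promoters of these genes. Many of the products are themselves transcription factors. FOS and JUN proteins pair as AP-1, and the EGR, NR4A and KLF proteins bind DNA on their own account. Other products end the response, such as the phosphatase DUSP1, which inactivates MAP kinases, and ZFP36, which marks unstable messenger RNA for decay. Heat shock proteins are chaperones that hold or refold damaged proteins. Most are driven by the factor HSF1, whereas HSPA5 (BiP) works in the endoplasmic reticulum and answers to the unfolded protein response.

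In the arrays as a whole, smooth muscle markers were present, with Myh11 at 10.65 to 10.90 and Tagln at 11.24 to 11.61, against array medians of 2.29 to 2.52 over all probe sets. WKY replicate 3 stood apart: the SD of its values was 2.12, whereas the other arrays had SDs from 2.22 to 2.27, and its fitted array weight was 0.22, whereas theirs ran from 0.69 to 2.05. On SHR replicate 1 the sympathetic neuron genes Th and Dbh lay at 5.92 and 6.40, and between 1.13 and 2.80 on the other 5 arrays. Of the same list of nerve markers, Cdh19 and S100b were also highest there, whereas Sox10 and Mbp were not. Marker means of endothelium, adventitial fibroblasts, macrophages, lymphocytes and white adipocytes were highest on that array. Those of smooth muscle, brown adipocytes, skeletal and cardiac muscle and blood cells were not. White adipocyte markers ranged from a mean level of 4.10 to 7.59 over the SHR arrays and from 5.96 to 7.50 over the WKY arrays. Of 6 tested skeletal and cardiac muscle markers, 4 (Acta1, Tnni2, Ckm and Tnnt3) had all SHR arrays below all WKY arrays, where 5.61% of all tested probe sets did. Tnni2 lay between 2.35 and 2.94, close to the array medians. The part of these other tissues in the members' levels was not tested. In a piece of tissue, fewer cells of a type and less RNA per cell cannot be told apart.

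No member passed the comparison of the strains (limma, Benjamini-Hochberg adjustment over 21659 tested probe sets, adjusted p under 0.05), where 0.0693% of all tested probe sets did (0.06% higher in SHR and 0.00923% lower). The smallest adjusted p was 0.575, for Jun. All 30 measured members were bright enough to be tested. At an unadjusted p under 0.05 there were 8 of the 30, or 26.7%, against 5.55% of all tested probe sets: 5 lower in SHR (Ccn1, Jun, Fosb, Nr4a1 and Klf6), where the share of all was 2.54%, and 3 higher (Egr2, Gadd45b and Hspa5), where it was 3.01%. The 3 SHR arrays lay wholly below the 3 WKY arrays for Ccn1, Jun and Fosb and wholly above them for Egr2, Gadd45b and Hspa5, which is 20% of the members against 12.1% of all tested probe sets (5.61% below and 6.48% above). Measured differences were below 0 for 19 members, or 63.3% against 52% of all, and their median was -0.19 against -0.01. The count at an unadjusted p under 0.05 was 3 without WKY replicate 2, 4 without SHR replicate 1 and 4 without SHR replicate 2, but 9 without SHR replicate 3. Each of these fits also holds fewer arrays. With 3 arrays against 3, an exact permutation test of a single gene cannot go below a two-sided p of 0.1, so none is given.

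**Figure D1:**
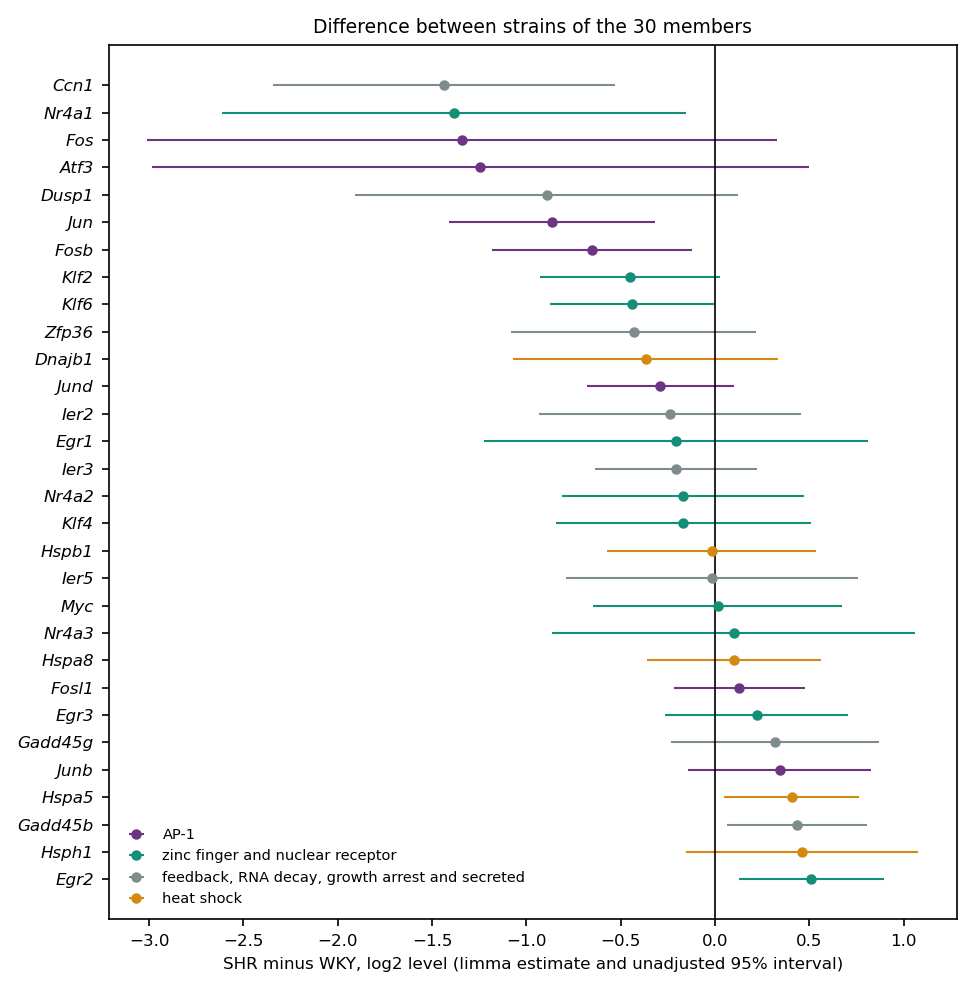
Each point is the SHR minus WKY difference in log2 level of 1 of the 30 members, with the unadjusted 95% interval of the limma fit, ordered from the lowest difference to the highest and coloured by role. The interval lies wholly below 0 for 5 members, from Ccn1 at -1.44 to Klf6 at -0.44, and wholly above 0 for Egr2, Gadd45b and Hspa5.

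Among the genes of AP-1 proteins, 5 of the 7 measured had a difference below 0, where 52% of all tested probe sets did, and 2 had an unadjusted p under 0.05, where 5.55% did. Jun, the main partner of FOS (probe set 17808683), lay at 6.77, 6.59 and 7.17 on SHR replicates 1 to 3 and at 7.31, 7.84 and 7.98 on WKY replicates 1 to 3. The strains did not overlap, and the gap between the highest SHR array and the lowest WKY array was small beside the spread within each strain. The difference was -0.86 ± 0.23 (SE; limma adjusted p = 0.575). The dimmer probe set of Jun, 17799870, gave -0.72 ± 0.22, with SHR from 3.97 to 4.59 and WKY from 4.67 to 5.07, so the arrays again did not overlap. Fosb, a FOS family member that outlasts FOS after stimulation (probe set 17630236), lay at 3.61, 3.40 and 3.34 in SHR and at 3.65, 4.47 and 4.19 in WKY. Its difference was -0.65 ± 0.23 (SE; limma adjusted p = 0.798), and WKY replicate 1 lay almost level with SHR replicate 1.

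Fos itself, the classic immediate early gene (probe set 17817508), lay at 5.02, 5.20 and 5.87 in SHR and at 6.90, 8.20 and 5.03 in WKY. WKY replicates 1 and 2 were above every SHR array, while WKY replicate 3 was as low as the lowest of them. The SD was 1.59 among the WKY arrays and 0.45 among the SHR arrays, and the difference of -1.34 ± 0.71 (SE; limma adjusted p = 0.923) was -2.18 without WKY replicate 3 and -0.60 without WKY replicate 2. Atf3, a stress-induced factor that pairs with JUN (probe set 17687609), lay at 4.995, 4.19 and 4.46 in SHR and at 4.08, 5.86 and 7.44 in WKY. Here WKY replicate 3 was the highest array and WKY replicate 1 the lowest of all 6, a different order from that of Fos. Its difference was -1.24 ± 0.74 (SE; limma adjusted p = 0.923), which was -2.10 with WKY replicate 1 left out and -0.42 with WKY replicate 3 left out.

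The other JUN and FOS genes differed less. Jund, a JUN gene expressed without stimulation in many tissues, lay at 6.84, 7.11 and 6.86 in SHR and at 7.14, 7.09 and 7.45 in WKY, a difference of -0.29 with a 95% interval from -0.68 to 0.10. Junb, which can oppose JUN, lay on the other side, at 5.99, 5.53 and 5.70 against 5.11, 5.71 and 5.37, a difference of 0.34 with an interval from -0.14 to 0.83. Without WKY replicate 3 the difference of Jund was -0.18, and without WKY replicate 1 that of Junb was 0.20. The strains overlapped in both. Fosl1 lay between 2.65 and 3.05 on all 6 arrays, not far above the array medians, and without a detection call at hand the presence of its transcript cannot be called. In all 7 AP-1 genes the SD was larger among the WKY arrays than among the SHR arrays, which held for 61.3% of all tested probe sets.

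**Figure D2:**
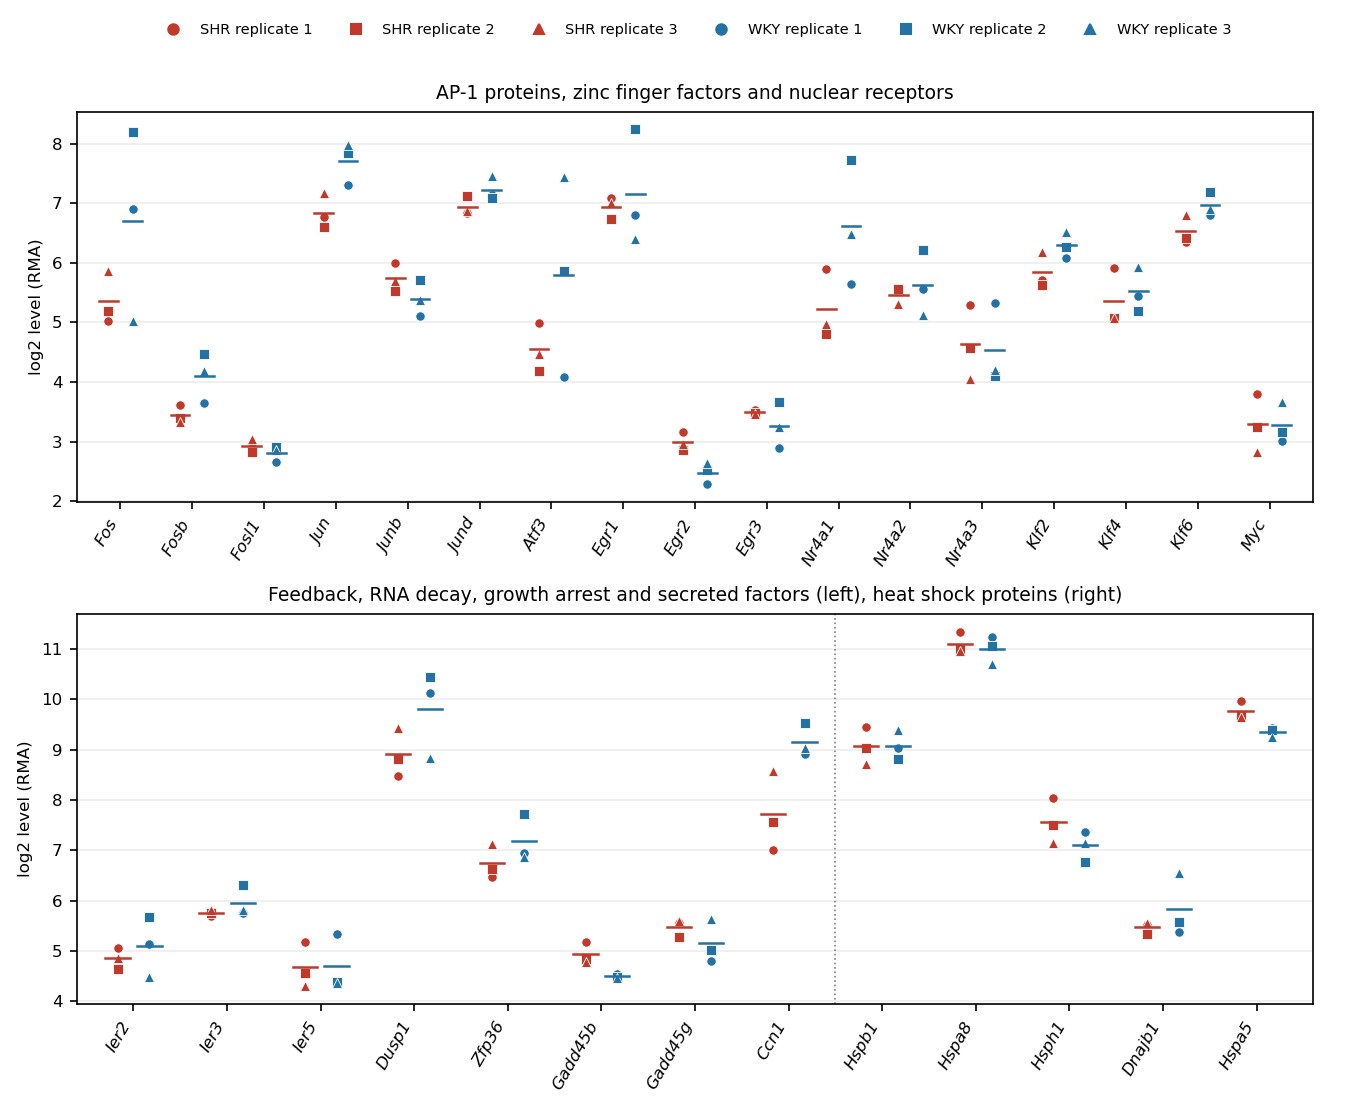
Log2 level of the 30 members on each array, with SHR in red and WKY in blue, a symbol for each replicate number and a bar for the mean of the 3 arrays of a strain; the upper panel holds transcription factors, the lower panel the remaining immediate early genes and, right of the dotted line, the heat shock genes. The WKY points of Fos, Atf3, Egr1 and Nr4a1 are spread widely, from 5.03 to 8.20 for Fos, while for Jun, Fosb and Ccn1 every red point lies below every blue one.

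Of the EGR genes, which encode zinc finger factors, Egr2 was measured higher in SHR and Egr1 showed no clear difference. Egr2 (probe set 17758189) lay at 3.17, 2.86 and 2.96 in SHR and at 2.29, 2.53 and 2.64 in WKY, a difference of 0.51 ± 0.16 (SE; limma adjusted p = 0.741). The strains did not overlap, but the levels were close to the array medians, so the WKY level is not shown to lie above background. Egr1, the member of the family most readily induced in smooth muscle, lay at 7.08, 6.73 and 7.01 in SHR and at 6.79, 8.24 and 6.41 in WKY. A single array, WKY replicate 2, was more than 1 log2 unit above all the others, and without it the difference of -0.21 turned to 0.34. Egr3 lay at 3.53, 3.48 and 3.47 in SHR and at 2.90, 3.66 and 3.25 in WKY, not far above the array medians. Its difference was 0.22 with a 95% interval from -0.26 to 0.71. That difference was 0.036 with WKY replicate 1 left out and 0.42 with WKY replicate 2 left out.

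The 3 orphan nuclear receptors of the NR4A family did not share an order of arrays. Nr4a1 (NUR77, probe set 17832476) lay at 5.90, 4.80 and 4.98 in SHR and at 5.64, 7.72 and 6.48 in WKY. Its difference of -1.38 ± 0.53 (SE; limma adjusted p = 0.873) was -0.83 without WKY replicate 2, and SHR replicate 1 lay above WKY replicate 1. Nr4a2 lay between 5.31 and 5.56 in SHR and at 5.56, 6.22 and 5.13 in WKY, so that again WKY replicate 2 was the highest. Nr4a3, in contrast, was highest on replicate 1 of each strain, at 5.29 in SHR and 5.32 in WKY, and lay between 4.05 and 4.58 on the other 4 arrays.

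Among the Krüppel-like factors, zinc finger proteins that regulate the state of smooth muscle and endothelial cells, Klf6 and Klf2 were measured lower in SHR by similar amounts. Klf6 (probe set 17720472) lay at 6.36, 6.42 and 6.81 in SHR and at 6.80, 7.19 and 6.91 in WKY, a difference of -0.44 ± 0.19 (SE; limma adjusted p = 0.899). Klf2, which flow induces in endothelium, lay at 5.71, 5.63 and 6.19 against 6.09, 6.27 and 6.52, a difference of -0.45 ± 0.20 (SE; limma adjusted p = 0.921). In each gene SHR replicate 3 overlapped the lower end of WKY. Of the endothelial markers 5 of 6 tested had a difference below 0, where 52% of all tested probe sets did. Their mean levels ran from 4.29 to 6.07 in SHR and from 5.37 to 5.95 in WKY. SHR replicate 1 had the highest endothelial mean of the 6 arrays and one of the lowest levels of Klf2. The part of endothelial content in the level of Klf2 was not tested. Klf4, which represses contractile genes, lay at 5.91, 5.08 and 5.07 in SHR and at 5.44, 5.20 and 5.93 in WKY, and Myc, a driver of growth, at 3.80, 3.24 and 2.83 against 3.01, 3.16 and 3.66. Neither gene separated the strains, and the levels of Myc were not far above the array medians.

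Ccn1 had the measured difference farthest from 0 of the 30 members. It encodes the secreted matrix protein CYR61, a target of SRF and YAP in smooth muscle (probe set 17751869). Its levels were 7.01, 7.57 and 8.58 in SHR and 8.91, 9.53 and 9.02 in WKY. All SHR arrays were below all WKY arrays, with SHR replicate 3 near the WKY range. The difference was -1.44 ± 0.39 (SE; limma adjusted p = 0.577), and -1.87 without SHR replicate 3.

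Dusp1 and Zfp36, both brakes on the response, had differences below 0 with overlapping arrays. Dusp1 lay at 8.48, 8.81 and 9.44 in SHR and at 10.12, 10.44 and 8.84 in WKY. As with Fos, WKY replicates 1 and 2 were above every SHR array and WKY replicate 3 was not. The difference was -0.89 ± 0.43 (SE; limma adjusted p = 0.923), which was -1.37 without WKY replicate 3 and -0.57 without WKY replicate 2. Zfp36 lay at 6.47, 6.64 and 7.13 in SHR and at 6.95, 7.72 and 6.86 in WKY, with a difference of -0.43 and a 95% interval from -1.08 to 0.22, and it was -0.16 without WKY replicate 2. Within SHR, Fos, Dusp1, Zfp36, Klf6, Ccn1 and Ier3 were lowest on replicate 1 and highest on replicate 3. The order was the reverse for Fosb, Egr3, Nr4a3, Ier5, Klf4, Myc and Gadd45b. It was also the reverse for the heat shock genes Hspb1, Hspa8, Hsph1 and Hspa5, so no single order was shared by the members.

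The IER genes encode short-lived regulators of growth and survival. Ier2 lay at 5.06, 4.65 and 4.86 in SHR and at 5.13, 5.68 and 4.48 in WKY. Ier3 lay between 5.70 and 5.81 in SHR and at 5.76, 6.31 and 5.81 in WKY, so its difference of -0.21 rested on WKY replicate 2 and was -0.03 without it. Ier5 lay at 5.19, 4.56 and 4.30 in SHR and at 5.33, 4.39 and 4.37 in WKY, so the same 2 arrays were highest as for Nr4a3. The GADD45 genes encode sensors of stress and DNA damage, and both members had a difference above 0. Their relative Gadd45a, which is no member, lay the other way by -0.20, at 5.71, 5.71 and 5.68 in SHR and 6.02, 5.75 and 5.93 in WKY, with no overlap. Gadd45b (probe set 17833546) lay at 5.18, 4.85 and 4.78 in SHR and at 4.55, 4.49 and 4.46 in WKY, a difference of 0.44 ± 0.16 (SE; limma adjusted p = 0.852) with no overlap. Gadd45g lay at 5.57, 5.27 and 5.59 against 4.81, 5.03 and 5.64, and WKY replicate 3 was the highest array. Its difference of 0.32 was 0.56 with that array left out and 0.14 with WKY replicate 1 left out.

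The members varied more between arrays of the same strain than most probe sets did. Ranked by the pooled SD within strains, Atf3 lay at the 99.4th percentile of all tested probe sets, Fos at 99.3, Nr4a1 at 97.9, Egr1 at 96.0, Dusp1 at 95.9, Nr4a3 at 95.2 and Ccn1 at 94.2. The median of the 25 immediate early members was at 82.7, and 13 of the 25 were above the 75th percentile. Quiet members existed too: Fosl1 lay at 12.6, Hspa5 at 16.8, Gadd45b at 22.3, Egr2 at 27 and Jund at 28.9. The SHR arrays lay wholly above WKY for Hspa5, Gadd45b and Egr2, whereas the strains overlapped for Fosl1 and Jund. A small spread within strains makes such a separation easier to reach. Members with a larger spread were also separated, with SHR wholly below WKY: Ccn1 at 94.2, Jun at 70.7 and Fosb at 68.2.

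WKY replicate 2 was the highest of the 6 arrays for 12 of the 25 immediate early members, or 48%, against 12.6% of all tested probe sets, and it was the lowest for none of them. The 12 were Fos, Fosb, Egr1, Egr3, Nr4a1, Nr4a2, Ier2, Ier3, Dusp1, Klf6, Zfp36 and Ccn1. Averaged over the 25 genes, WKY replicate 2 was 0.44 above each gene's own mean over the 6 arrays and SHR replicate 2 was 0.30 below it, while the other 4 arrays were between -0.13 and 0.08. WKY replicate 3 was the highest array for Jun, Jund, Atf3, Klf2, Klf4 and Gadd45g, or 24% of the 25 against 30.5% of all tested probe sets. Among the 10 lists of cell type markers, the only one with its highest mean on WKY replicate 2 was that of blood cells. It was 3.21 there and from 1.95 to 3.08 elsewhere, with 4 of 8 markers tested. The smooth muscle mean was level, at 9.89, on WKY replicates 2 and 3 and SHR replicate 3. Hba-a1, a globin gene, lay at 5.09 on WKY replicate 2 and from 1.36 to 4.20 on the others. Pf4, a platelet gene, lay at 4.61 on WKY replicate 2, below 3 of the other 5 arrays. Slc4a1 and Ppbp lay under 1.8 on all 6. The part of blood content in the levels of these genes was not tested. The median difference of the 25 genes, -0.21, was -0.16 when WKY replicate 2 was left out, -0.31 when WKY replicate 1 was, and -0.34 when WKY replicate 3 was.

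**Figure D3:**
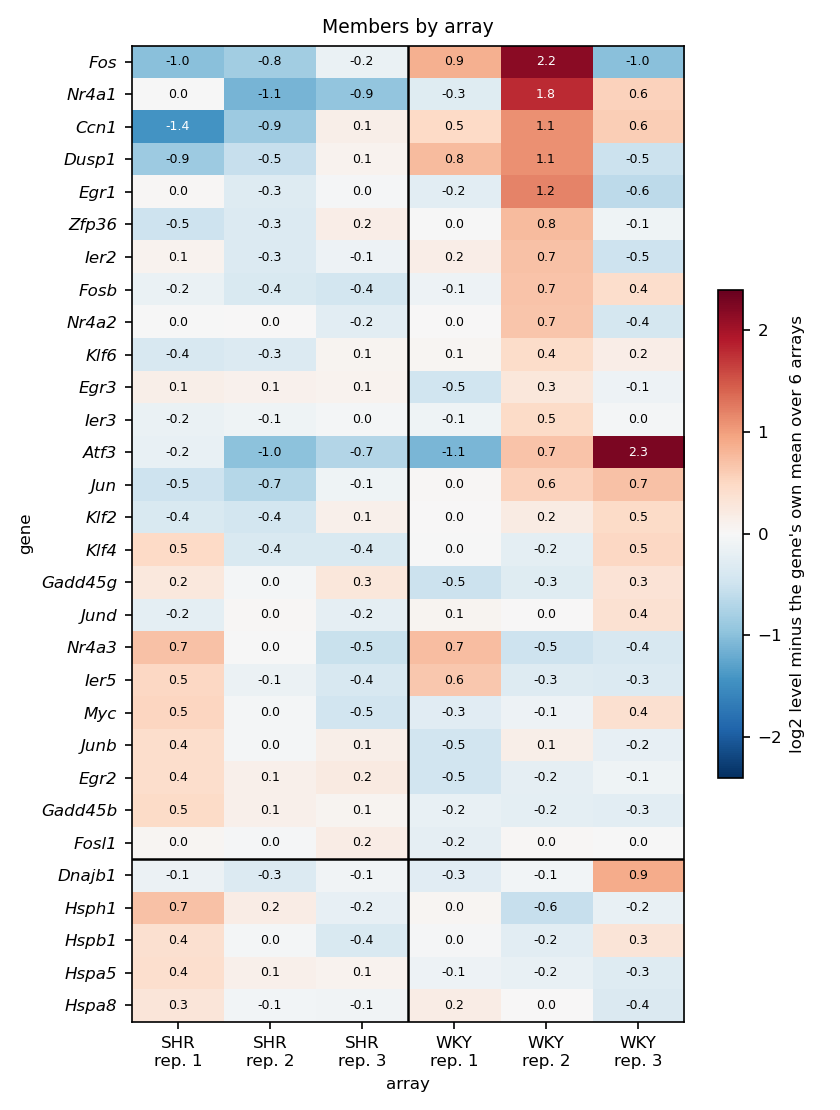
Each cell gives the log2 level of a member on 1 array minus the mean of that gene over the 6 arrays, red above and blue below; immediate early members stand above the horizontal line, sorted by the array on which they are highest, and heat shock members below it. The uppermost 12 rows, from Fos to Ier3, are highest on WKY replicate 2, and 4 of the 5 heat shock genes are highest on SHR replicate 1.

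The RefSeq promoter windows of build GRCr8, from 250 bases before to 50 after the transcription start, were read for members that the values above turn on. Windows were at hand for 24 of the 33 members. There was none for Fos, Jun, Egr3, Nr4a3, Atf3, Ier3, Klf2, Myc and Hsp90aa1. Egr1 is shown for its SRF sites and Nr4a1 and Dusp1 for their CREB sites, since the 3 genes share their highest array. Capitals mark the CArG box, to which SRF binds, and the core TGACG of the CRE, to which CREB binds, on either strand.
Egr1 (chr18:26736828-26737127, plus strand): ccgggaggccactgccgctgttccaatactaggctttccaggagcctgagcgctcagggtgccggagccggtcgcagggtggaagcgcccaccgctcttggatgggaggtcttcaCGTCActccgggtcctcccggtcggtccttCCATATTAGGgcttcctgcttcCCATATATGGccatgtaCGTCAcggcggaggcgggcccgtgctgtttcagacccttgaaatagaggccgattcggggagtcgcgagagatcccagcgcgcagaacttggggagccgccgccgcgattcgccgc
Nr4a1 (chr7:134259888-134260187, plus strand): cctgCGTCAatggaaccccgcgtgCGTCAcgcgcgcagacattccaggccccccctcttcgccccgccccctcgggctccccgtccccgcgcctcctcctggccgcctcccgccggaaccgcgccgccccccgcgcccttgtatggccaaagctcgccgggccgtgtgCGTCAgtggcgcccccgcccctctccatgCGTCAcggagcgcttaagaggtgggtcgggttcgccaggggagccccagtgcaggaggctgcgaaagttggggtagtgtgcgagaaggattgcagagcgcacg
Dusp1 (chr10:17184603-17184902, plus strand): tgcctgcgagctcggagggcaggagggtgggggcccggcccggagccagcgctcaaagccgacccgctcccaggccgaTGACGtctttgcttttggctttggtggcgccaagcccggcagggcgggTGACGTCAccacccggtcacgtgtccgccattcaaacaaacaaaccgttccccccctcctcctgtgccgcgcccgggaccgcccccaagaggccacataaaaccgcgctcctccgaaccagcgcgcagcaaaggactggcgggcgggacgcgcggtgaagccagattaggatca

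The window of Egr1 held 2 CArG boxes and 2 CRE cores, that of Nr4a1 held 4 CRE cores, and that of Dusp1 held 3 cores, of which 2 overlap in the full CRE, TGACGTCA. On either strand a CArG box was found in 4 of the 19 immediate early windows, or 21.1%, namely in Egr1, Egr2, Klf6 and Zfp36, against 1.64% of all 27457 windows. A full CRE was found in 4 of 19 (Dusp1, Btg2, Jund and Ier2), against 1.91% of all, and the core, within a full CRE or outside one, in 12 of 19, or 63.2%, against 22% of all. The pattern TGANTCA was in none of the 19 and in 7.33% of all windows. It takes in the site of AP-1 but allows any middle base, so it is wider than that site. The EGR site GCGNGGGCG was in 5 of 19, against 5.29% of all. These are matches of letters and do not show binding. Of the genes that hold a CArG box, Egr1, Klf6 and Zfp36 were highest on WKY replicate 2. Egr2, at levels close to the array medians, was highest on SHR replicate 1. Of measured immediate early genes with a CRE core, Ccn1, Dusp1, Egr1, Ier2, Nr4a1 and Nr4a2 were highest on WKY replicate 2. Junb, Gadd45b and Egr2, which hold it too, were highest on SHR replicate 1, Fosl1 on SHR replicate 3 and Jund on WKY replicate 3. The part of these sites in the levels was not tested.

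The heat shock members as a group showed no common difference, and Hspa5 was the one that separated the strains. Hspa5 (BiP, probe set 17761597) lay at 9.96, 9.68 and 9.65 in SHR and at 9.44, 9.39 and 9.25 in WKY. All SHR arrays were above all WKY arrays, by a difference of 0.41 ± 0.15 (SE; limma adjusted p = 0.862). Hsph1, an HSP110 that recharges HSP70, lay at 8.04, 7.51 and 7.14 against 7.37, 6.77 and 7.15, a difference of 0.46 with a 95% interval from -0.15 to 1.08. SHR replicate 1 set it apart, and without that array the difference was 0.23.

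Dnajb1, the HSP40 that delivers clients to HSP70, lay at 5.51, 5.33 and 5.56 in SHR and at 5.38, 5.58 and 6.55 in WKY. Its difference of -0.37 rested on WKY replicate 3 and was -0.01 without it. The constitutive HSP70 Hspa8 lay at 11.34, 10.99 and 10.96 against 11.23, 11.06 and 10.69, and the small heat shock protein Hspb1, abundant in muscle, at 9.45, 9.03 and 8.71 against 9.04, 8.82 and 9.38. Their differences, 0.10 and -0.02, had 95% intervals from -0.36 to 0.56 and from -0.57 to 0.54, and that of Hspb1 turned to 0.03 when arrays were centred on their medians. SHR replicate 1 was the highest array for Hspb1, Hspa8, Hsph1 and Hspa5, against 16.8% of all tested probe sets. The array with the most Th and Dbh was thus also the highest for these genes, and the part of that tissue was not tested.

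For the heat shock genes the printed windows show how Hspa5 differs from the cytosolic chaperones. Capitals mark the ER stress element in Hspa5 (CCAAT and, 9 bases on, CCACG) and, in Hsph1 and Dnajb1, the heat shock element (GAANNTTC or TTCNNGAA, 1 pattern seen in either phase).
Hspa5 (chr3:38452766-38453065, plus strand): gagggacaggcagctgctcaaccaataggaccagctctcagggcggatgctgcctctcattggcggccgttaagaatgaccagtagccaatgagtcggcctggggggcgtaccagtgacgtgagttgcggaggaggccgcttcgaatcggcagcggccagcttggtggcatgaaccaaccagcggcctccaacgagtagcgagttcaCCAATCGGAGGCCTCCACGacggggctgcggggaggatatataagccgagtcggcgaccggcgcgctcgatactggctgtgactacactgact
Hsph1 (chr12:10427118-10427417, plus strand): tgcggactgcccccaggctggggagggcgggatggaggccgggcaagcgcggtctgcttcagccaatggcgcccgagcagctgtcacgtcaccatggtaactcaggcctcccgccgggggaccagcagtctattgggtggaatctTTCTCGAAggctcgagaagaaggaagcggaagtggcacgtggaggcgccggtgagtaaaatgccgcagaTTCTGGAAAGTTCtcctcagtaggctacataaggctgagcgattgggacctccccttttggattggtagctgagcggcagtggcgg
Dnajb1 (chr19:41431092-41431391, minus strand): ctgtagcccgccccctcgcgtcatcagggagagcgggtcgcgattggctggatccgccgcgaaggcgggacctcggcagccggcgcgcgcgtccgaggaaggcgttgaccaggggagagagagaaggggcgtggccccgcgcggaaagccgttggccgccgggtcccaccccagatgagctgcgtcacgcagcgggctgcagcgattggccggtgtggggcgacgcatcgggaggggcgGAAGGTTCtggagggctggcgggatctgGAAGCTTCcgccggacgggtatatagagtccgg

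The ER stress element was in Hspa5 alone among the 24 windows, and in 0.0765% of all windows. The heat shock element was in Hsph1, Dnajb1, Hspb1 and Hspa8, 4 of 5 heat shock windows, in 2 of 19 immediate early ones, and in 15.4% of all. In a list of 21 other genes of endoplasmic reticulum folding and stress, 6 of 16 with a window held the ER stress element (Calr, Canx, Creld2, Dnajc3, Hsp90b1 and Xbp1).

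All 21 genes of that list were tested and none passed in limma (smallest adjusted p 0.860). At an unadjusted p under 0.05 there were 2, Manf and Dnajb11, or 9.52% against 5.55% of all tested probe sets. Differences were above 0 for 19 of the 21, with a median of 0.31, and 9.52% were below 0 against 52% of all. For 10 genes all SHR arrays lay above all WKY arrays, where 6.48% of all tested probe sets did so, and for 1, the stress sensor Ern1, all lay below. Hsp90b1 (GRP94), the HSP90 of this compartment, lay at 9.15, 9.08 and 9.19 in SHR and at 8.85, 8.87 and 8.84 in WKY, a difference of 0.29 ± 0.13 (SE; limma adjusted p = 0.921). Manf, a secreted stress protein, lay at 6.41, 6.47 and 6.25 against 6.06, 6.05 and 5.84. Dnajb11, a cochaperone of HSPA5, lay at 6.09, 6.21 and 6.03 against 5.83, 5.67 and 5.83, and the disulphide isomerase gene Pdia4 at 7.49, 7.41 and 7.50 against 7.25, 7.19 and 6.87. These 4 genes did not overlap between strains. WKY replicate 3 was the lowest array, 0.34 below the gene means on average, and without it the median was 0.21, with 17 of 21 above 0. Ddit3 (CHOP), the factor of unresolved stress, did not separate the strains (difference 0.01), and neither did Herpud1 (-0.10).

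**Figure D4:**
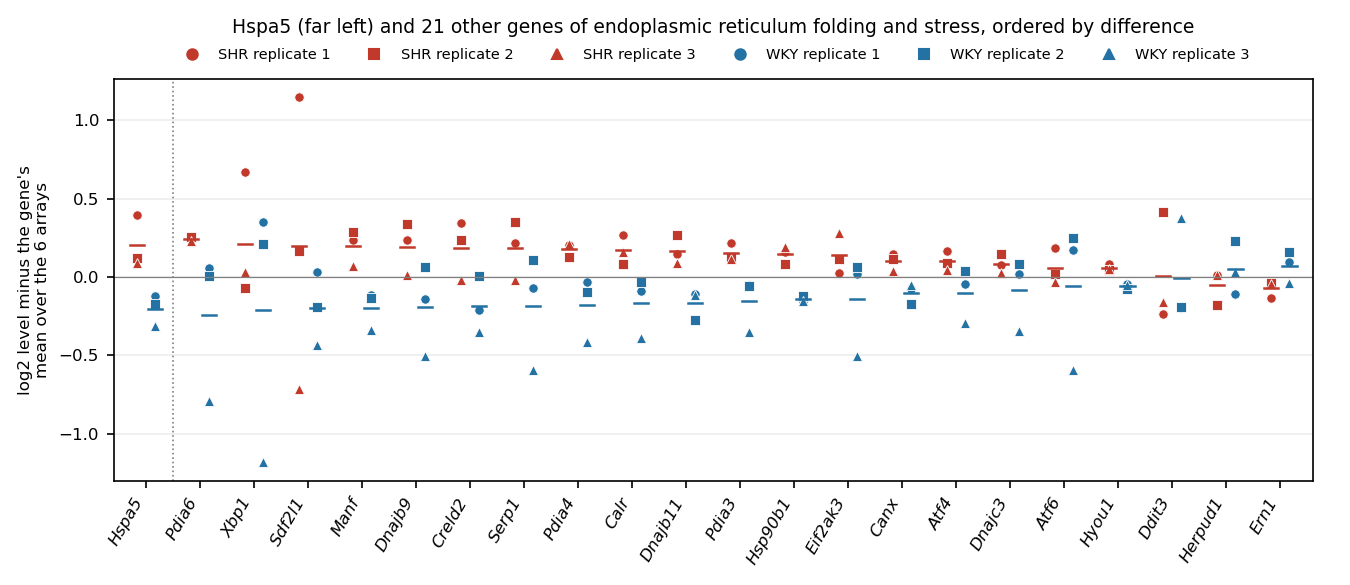
Log2 level of Hspa5 (left of the dotted line) and of 21 other genes of endoplasmic reticulum folding and stress on each array, minus the mean of the gene over the 6 arrays; SHR is red, WKY blue, symbols are replicate numbers and bars are means of 3 arrays. Red lies above blue for most genes down to Canx and Atf4, and the blue triangle, WKY replicate 3, is often the lowest point.

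The other lists of pathway neighbours gave no passing gene in limma either. Of 26 tested cytosolic heat shock proteins and cochaperones 21 had a difference above 0, with a median of 0.14 that was 0.05 without WKY replicate 3. The share below 0 was 19.2%, against 52% of all tested probe sets. At an unadjusted p under 0.05 the share was 3.85%, against 5.55% of all. The 1 gene at an unadjusted p under 0.05 was Hspb7, a small heat shock protein of muscle, at 6.48, 7.41 and 7.36 in SHR and 5.597, 6.38 and 6.64 in WKY (limma adjusted p = 0.882). Hspb6, a relaxant of smooth muscle, lay the other way, at 7.44, 8.07 and 7.76 against 8.58, 8.65 and 7.75. Hsf1, the factor that drives these genes, differed by 0.02.

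Of 29 tested further immediate early genes 15, or 51.7%, were below 0 against 52% of all tested probe sets, and the median was -0.00065. It was -0.12 without SHR replicate 1 and -0.07 without WKY replicate 3, with 19 of 29 below 0 in each case, and 0.05 without SHR replicate 2. Ptgs2, the inducible cyclooxygenase, lay at 7.23, 7.70 and 8.89 in SHR and at 8.49, 9.99 and 9.07 in WKY. That is the order of arrays seen in Ccn1 within SHR, and WKY replicate 2 was again the highest (difference -1.25 ± 0.50 SE; limma adjusted p = 0.882). Rgs2, which restrains signalling from vasoconstrictor receptors, lay at 5.99, 6.52 and 5.94 against 6.61, 6.70 and 6.62 with no overlap (difference -0.49). Hbegf, a growth factor, lay the other way without overlap, by 0.45. In this list 3 of 29 genes did not overlap between strains, or 10.3% against 12.1% of all tested probe sets. At an unadjusted p under 0.05 there were also 3 of 29, or 10.3%, against 5.55% of all. Ccn2, the closest relative of Ccn1, lay between 9.69 and 9.94 on all 6 arrays and differed by -0.07.

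Among 15 tested MAP kinase phosphatases and feedback inhibitors 10, or 66.7%, were below 0 against 52% of all tested probe sets. Without WKY replicate 1 or without WKY replicate 2 the count was 8, and without SHR replicate 3 it was 11. At an unadjusted p under 0.05 the share was 6.67%, against 5.55% of all. Spred1, an inhibitor of RAS signalling, lay at 6.12, 6.22 and 6.35 in SHR and at 5.598, 5.70 and 5.70 in WKY, the 1 gene of this list at an unadjusted p under 0.05 (difference 0.56 ± 0.14 SE; limma adjusted p = 0.505). Dusp6, which is specific to ERK, ran from 5.97 to 6.19 in SHR and lay at 6.95, 6.68 and 4.99 in WKY, so its WKY arrays split as those of Fos and Dusp1 did. None of the 12 tested regulators around SRF, the ternary complex factors and CREB had an unadjusted p under 0.05. Their differences were above 0 for 10 of the 12, with a median of 0.06, and 16.7% were below 0 against 52% of all tested probe sets. The highest were those of Creb1, the CREB gene itself (0.51), the kinase gene Rps6ka3 (0.42), Elk3 (0.35) and Atf1 (0.33), and only in Atf1 did the strains not overlap. In these 4 genes WKY replicate 3 was the lowest array. Atf1 was the 1 gene of the 12 without overlap, or 8.33%, against 12.1% of all tested probe sets. Srf differed by 0.03, Mrtfa by 0.02 and Crem by -0.01.

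Of 14 tested early targets of NF-kB 9 were above 0, and 35.7% were below 0 against 52% of all tested probe sets. The number below 0 was 4 without SHR replicate 1 and 6 without SHR replicate 3 or without WKY replicate 1. At an unadjusted p under 0.05 there were 2, or 14.3% against 5.55% of all. Ccl2, the chemokine that draws monocytes, lay at 5.75, 4.84 and 4.75 in SHR and at 4.11, 3.86 and 3.83 in WKY (difference 1.18 ± 0.27 SE; limma adjusted p = 0.463). Icam1, an adhesion molecule, lay at 5.86, 5.69 and 5.54 against 5.11, 5.15 and 5.17 (difference 0.55 ± 0.15 SE; limma adjusted p = 0.550). In both genes all SHR arrays lay above all WKY arrays. The strains did not overlap in 3 of the 14 genes, or 21.4%, against 12.1% of all tested probe sets. Macrophage markers ran from a mean of 3.75 to 6.17 in SHR and from 4.54 to 5.48 in WKY, and their part in the level of Ccl2 was not tested. Nfkbia and Tnf differed by -0.03 and -0.04.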

How the data were processed

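The data are log2 values per probe set on the Affymetrix Rat Gene 2.0 ST array, which the authors deposited and, per the submitters' processing notes, made with RMA in Affymetrix Expression Console 1.2.1. RMA corrects background, quantile-normalizes the arrays and summarizes probes by median polish, and its output is on the log2 scale, which the range of values fits. For the genome build, annotation version and level of summarization: not given in the sources used here. No detection call was at hand, so presence of a dim transcript cannot be called. Depth does not apply to arrays, and their number limits the precision.

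Strain and replicate number came from the sample titles. Of 28879 probe sets, 18511 name 1 gene in the platform annotation, and 18394 of these took a current symbol from RefSeq (GRCr8) through their Entrez identifier. Probe sets with a mean at or above the 25th percentile (log2 level 1.17) were tested, 21659 in all. The fit used lmFit and eBayes of limma 3.58.1, under R 4.3.3, with strain as the only term and two-sided p-values, Benjamini-Hochberg adjusted over all tested probe sets. The fit was tested on simulated data. For a gene with several probe sets, the brightest on average over the 6 arrays was used. Differences are SHR minus WKY. Alternatives were the filter, further quantile normalization, median centring, a trended robust prior, array weights, the replicate number as a block, a threshold of 0.10, the mean over a gene's probe sets, and each array left out. The named genes are all measured members and, from each list of pathway neighbours, the 4 with the smallest unadjusted p, of which some are printed. Other list genes (Gadd45a, Hsf1, Ddit3, Herpud1, Ern1, Ccn2, Dusp6, Srf, Mrtfa, Crem, Nfkbia, Tnf) were chosen after their values were seen. The members and lists were chosen with earlier results of these data known. Motifs were searched in RefSeq promoter windows as fixed patterns on both strands. Members are not replicates of a strain, and no test was made over a list.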

Additional observations from a re-analysis of the deposited data

How the results depend on the processing

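The 391 values of single members under the alternatives included no passing one, with adjusted p from 0.158 upward. In 21 of the 30 members the sign held in every alternative run, and it changed in the other 9. Median centring turned Ier5 to 0.032 and Hspb1 to 0.030, and array weights turned Nr4a3 to -0.10, Hspb1 to 0.062 and Hspa8 to -0.074. Leaving out 1 array at a time, the difference ran from -0.58 to 0.34 for Egr1, -0.42 to 0.12 for Nr4a2, -0.23 to 0.49 for Nr4a3, -0.55 to 0.052 for Ier2, -0.27 to 0.30 for Ier5, -0.45 to 0.036 for Klf4, -0.24 to 0.24 for Myc, -0.21 to 0.16 for Hspb1 and -0.052 to 0.22 for Hspa8. In all, 22 of the 30 members changed sign or moved by over 1.5 times with some array left out. The count of members at an unadjusted p under 0.05, 8 in the fit reported, ran from 3 to 9 with 1 array left out and was 12 with array weights. Over all probe sets 15 passed as reported. The count was 2 to 5 with 1 array left out, which also leaves fewer arrays in the fit, 65 with array weights and 30 at an adjusted p under 0.10. Quantile normalization, median centring, the other filters and the trended robust prior left it between 11 and 15. With the replicate number as a block 3 probe sets passed. The titles share replicate numbers between strains. Deviations from the strain means correlated at 0.35, -0.08 and 0.23 for numbers 1 to 3, and at -0.32 to 0.17 for unlike numbers. With 3 arrays per strain these values cannot tell whether the numbers pair the samples. The cause of these changes was not tested.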
